A study of Mus musculus with 20 samples.

Results

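The genes described here are the corticosteroid receptors and a set of genes that the glucocorticoid receptor controls, 10 in all, found by their symbols. They are the glucocorticoid receptor gene Nr3c1, the mineralocorticoid receptor gene Nr3c2 and 8 target genes, Fkbp5, Tsc22d3, Sgk1, Zbtb16, Plin4, Hif3a, Pdk4 and Klf9. All 10 were among the 55487 genes listed for prefrontal cortex and the 57180 listed for hippocampus. After a filter on low counts all 10 were also among the 17760 and 18873 genes tested.

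Glucocorticoids such as corticosterone, the main stress hormone of rodents, cross the cell membrane and bind receptors held in the cytoplasm by heat shock proteins. The bound receptor moves to the nucleus, where it attaches to glucocorticoid response elements, pairs of short mirrored sequences, and raises or lowers the transcription of nearby genes. In brain the mineralocorticoid receptor binds the same hormone more tightly and is best known from the hippocampus, while the glucocorticoid receptor is found in most cell types and is engaged mainly when hormone is high.

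RNA sequencing was done on brain tissue of C57/BL6 wild-type mice aged 2 to 6 months. Prefrontal cortex came from males 24 h after intraperitoneal lipopolysaccharide (LPS), a bacterial product known to cause inflammation of the whole body and release of stress hormone, at 5 mg/kg (n = 4) or after 0.9% saline (n = 4). Hippocampus came from mice 24 h after nicotine at 0.2 mg/kg (n = 6) or after saline (n = 6), with route and sex not given in the labels. Levels are given as CPM, the counts of a gene after scaling all libraries to the same total, so that fewer cells of a type and less RNA per cell cannot be told apart.

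Libraries are called 1L to 8L in prefrontal cortex and 1N to 12N in hippocampus. The labels of the prefrontal cortex were in conflict: in 4 of 8 records, those of libraries 2L, 4L, 6L and 8L, the column name contradicted both the title and the treatment field. The column names were used, which made 1L, 3L, 6L and 8L saline and 2L, 4L, 5L and 7L LPS. Grouping by title called 0 of the 10 genes and 0 genes in all by edgeR's quasi-likelihood test, so every result in prefrontal cortex rests on the column names. Leaving out all 4 libraries in doubt kept 1L and 3L against 5L and 7L. Values from these are given with Nr3c1, Nr3c2 and Tsc22d3, and the other targets kept their direction and call. Between 36371084 and 46106526 reads were counted per prefrontal cortex library, and between 51969343 and 68196280 per hippocampal library. Prox1, a marker of hippocampal dentate granule neurons, stood at 59.6 to 129 CPM in hippocampus and at 7.83 to 12.8 CPM in prefrontal cortex. The choroid plexus gene Ttr ranged from 15.3 to 3682 CPM among hippocampal libraries. Striatal markers, a list of 7 genes, averaged 4.30 to 6.88 log2 CPM across the saline and 4.13 to 7.12 across the LPS libraries of the prefrontal cortex, and 0 of 7 passed the test.

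With LPS, all 8 target genes rose in prefrontal cortex, and of the receptors Nr3c2 rose slightly while Nr3c1 did not pass the test. In all 9 of 10 genes were higher and 0 lower at an adjusted p under 0.05 by edgeR's quasi-likelihood test with Benjamini-Hochberg adjustment. Over all genes tested, 21.5% were higher and 19.7% were lower. The ranges of the LPS and saline libraries did not meet for 7 of the 10, all of them higher with LPS. Over all genes tested 19.2% were separated upward and 17.9% downward. The 10 genes were chosen with earlier results of these data known, so these counts are not independent evidence.

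**Figure D1:**
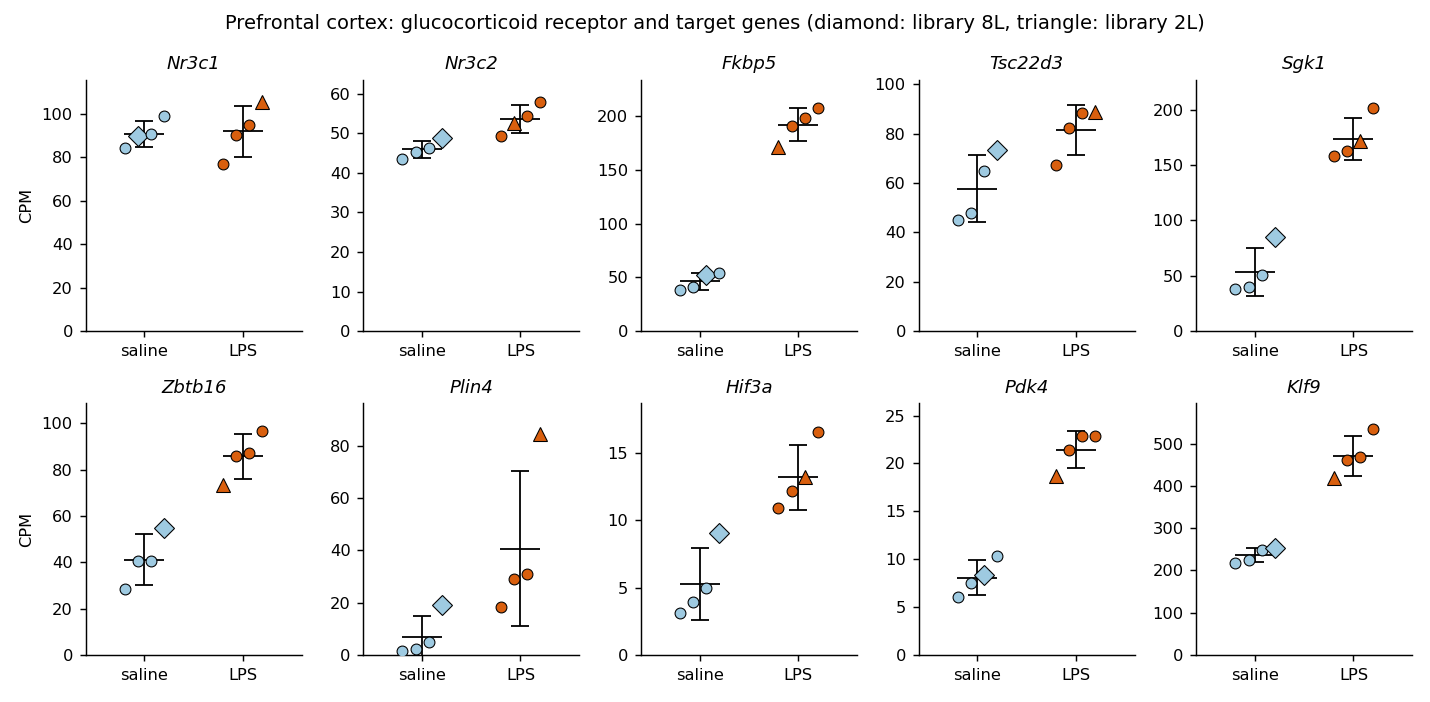
Each panel shows 1 gene in prefrontal cortex, with level in CPM on a linear axis from 0, points for the 4 saline and 4 LPS libraries, and bars for the mean and SD (the lower bar of Plin4 in saline runs below the axis). The diamond is saline library 8L, which lies highest among saline libraries for Plin4, Hif3a and Sgk1, and the triangle is LPS library 2L, which reaches 84.6 CPM for Plin4.

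The gene of the receptor itself did not pass. Nr3c1 (chr18:39410545-39519421, minus strand, build mm10) stood at 90.5, 98.8, 84.2 and 89.6 CPM in saline libraries 1L, 3L, 6L and 8L and at 105, 94.9, 90.4 and 76.8 CPM in LPS libraries 2L, 4L, 5L and 7L. The lowest and the highest values were both LPS libraries, and the groups overlapped throughout. The log2 change was 0.02 (SE 0.09), with a 95% confidence interval from -0.19 to 0.22 and an adjusted p of 0.900 (edgeR). Where labels agreed the log2 change was -0.19.

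Nr3c2 (chr8:76899442-77245012, plus strand), the mineralocorticoid receptor gene, stood at 46.2, 45.2, 43.6 and 48.8 CPM in saline and at 52.5, 54.4, 57.9 and 49.4 CPM in LPS libraries. Every LPS library was above every saline library, although 8L and 7L differed by little. The log2 change was 0.22 (SE 0.08; 95% confidence interval 0.06 to 0.38; edgeR adjusted p = 0.0346). The call was lost under 9 of 15 other settings, among them leaving out 1L, 3L, 4L, 5L or 6L alone. Over the 15 settings the log2 change was 0.17 to 0.25 and edgeR's or DESeq2's adjusted p 0.0281 to 0.171, with 0.22 (0.171) where labels agreed. An annotated RNA on the opposite strand, Gm10649, covers 247 bases or 3.82% of its exons, and the strand setting of the counting is not given in the sources used here.

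Among the targets, Fkbp5 (chr17:28399094-28517527, minus strand) encodes a co-chaperone that lowers the receptor's affinity for hormone, so that its induction by the receptor forms a short feedback loop. Its saline libraries stood at 37.9, 41.1, 54.2 and 52.4 CPM, and its LPS libraries at 171, 198, 207 and 191 CPM. No saline library came near the LPS libraries. Fkbp5 rose 4.14-fold, a log2 change of 2.05 (SE 0.12; 95% confidence interval 1.79 to 2.31; edgeR adjusted p = 6.02e-07). By p-value it ranked 29 of 17760 genes.

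Tsc22d3 (chrX:140539528-140600659, minus strand) encodes GILZ, a leucine zipper protein known for carrying anti-inflammatory effects of glucocorticoids. It stood at 47.7, 45.0, 65.0 and 73.2 CPM in saline and at 88.6, 67.2, 82.3 and 88.4 CPM in LPS libraries. The groups overlapped, because 8L lay above LPS library 4L. The rise was the smallest of the 8 targets, 0.50 on the log2 scale (SE 0.15; edgeR's adjusted p = 0.0198). The gene did not pass without library 1L (adjusted p = 0.0618), without 3L (0.0622) or without 7L (0.0501), and was 0.87 where labels agreed (adjusted p = 0.000486).

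Sgk1 (chr10:21882184-21999903, plus strand) encodes a serum- and glucocorticoid-regulated kinase that acts on ion channels and transporters. Libraries 1L, 3L, 6L and 8L held 39.9, 38.2, 50.4 and 84.9 CPM, and the LPS libraries held 171, 163, 201 and 158 CPM. All LPS libraries were higher, but 8L stood well above the other saline libraries. Sgk1 rose 3.25-fold, 1.70 on the log2 scale (SE 0.22; edgeR's adjusted p = 0.000142), and by 2.01 (SE 0.12) without 8L.

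Promoter windows were read for these genes because they are defined by the receptor that binds DNA. RefSeq windows of build GRCm38.p6, from 250 bases before to 50 bases after a start site, were given for 8 of the 10 genes, 15 windows in all. The hexamer AGAACA or its complement TGTTCT, which make up the element when joined by 3 free bases, was searched on both strands. It lay in 4 of the 15 windows, all of them of Sgk1 or Tsc22d3, and in 19.0% of all 32851 windows. Both genes also had windows without it. The whole element with no mismatch was found in 1 of the 15 windows, an Sgk1 window, and in 3 of all 32851 windows, or 0.00913%. In Sgk1 it spanned chr10:21993701-21993715, starting 189 bases before one annotated start site and 965 bases before the next. The stretch before that start site, chr10:21993640-21993889 on the plus strand, is printed 5′ to 3′ with every AGAACA and TGTTCT in capitals, the element being the pair parted by 3 bases.

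Sgk1: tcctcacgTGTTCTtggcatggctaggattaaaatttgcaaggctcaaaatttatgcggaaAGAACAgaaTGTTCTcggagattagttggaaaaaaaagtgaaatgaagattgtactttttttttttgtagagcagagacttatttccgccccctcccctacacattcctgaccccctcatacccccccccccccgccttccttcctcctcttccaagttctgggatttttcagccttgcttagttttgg

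The stretch of a Tsc22d3 window before any annotated exon, chrX:140600660-140600772 on the minus strand, held a lone TGTTCT, also in capitals. It lay 185 bases before the start site of its window.

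Tsc22d3: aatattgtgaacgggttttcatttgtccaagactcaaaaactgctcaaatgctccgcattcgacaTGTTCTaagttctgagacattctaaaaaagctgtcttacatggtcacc

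These matches describe letters in the reference genome, and nothing in the RNA counts bears on binding there. Elements farther than 250 bases before or 50 bases after a listed start site were not searched for. In a wider list of glucocorticoid-responsive genes (described further on), 4 of 34 windows of 25 genes held the hexamer (11.8%), and 0 held the element even with 1 mismatch, against 54 of all windows (0.164%).

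Zbtb16 (chr9:48654297-48836222, minus strand), the gene of the zinc finger repressor PLZF, stood at 40.6, 28.3, 40.6 and 55.0 CPM in saline and at 73.3, 85.7, 96.8 and 87.0 CPM in LPS libraries. The groups were separate, and 8L was again the highest saline library. Zbtb16 rose 2.08-fold, 1.06 on the log2 scale (SE 0.16; edgeR's adjusted p = 0.000460). Klf9 (chr19:23141226-23168134, plus strand) encodes a Krüppel-like factor that glucocorticoid and thyroid hormones induce in neurons. It was the most abundant of the set, with 225, 219, 248 and 253 CPM in saline and 420, 469, 534 and 463 CPM in LPS libraries. The saline libraries lay close together and far below the LPS libraries. Its log2 change of 1.00 (SE 0.08; edgeR adjusted p = 9.06e-06), a fold of 2.00, had the smallest error of the 8 targets.

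Pdk4 (chr6:5483351-5496309, minus strand) encodes a kinase that shuts off pyruvate dehydrogenase and so spares glucose when fat is burnt. It stood at 6.03, 7.54, 10.4 and 8.39 CPM in saline and at 18.7, 22.8, 22.8 and 21.4 CPM in LPS libraries. The groups were separate, and 8L lay in the middle of the saline libraries. Pdk4 rose 2.65-fold, 1.40 on the log2 scale (SE 0.15; edgeR's adjusted p = 5.42e-05).

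Hif3a (chr7:17031507-17062427, minus strand) encodes a hypoxia-inducible factor subunit of which short forms restrain the other subunits. Its saline libraries held 3.10, 3.91, 5.01 and 9.08 CPM and its LPS libraries 13.2, 16.6, 12.2 and 10.9 CPM. All LPS libraries were higher, with 8L just under 7L. The log2 change was 1.32 (SE 0.28; edgeR adjusted p = 0.00314), and 1.71 (SE 0.20) without 8L.

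Plin4 (chr17:56100591-56109803, minus strand), a lipid droplet coat protein gene, varied most. It stood at 1.62, 2.45, 4.80 and 19.0 CPM in saline and at 84.6, 30.8, 29.2 and 18.3 CPM in LPS libraries. The groups overlapped at 8L and 7L, and 2L alone held 84.6 CPM. The log2 change of 2.54 (SE 0.68; edgeR adjusted p = 0.0116) had a 95% confidence interval from 1.05 to 4.04. It moved to 3.76 (SE 0.56) without 8L and to 1.90 (SE 0.61; adjusted p = 0.0236) without 2L. An exon of Hdgfl2 on the opposite strand shares 17 bases with it.

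**Figure D2:**
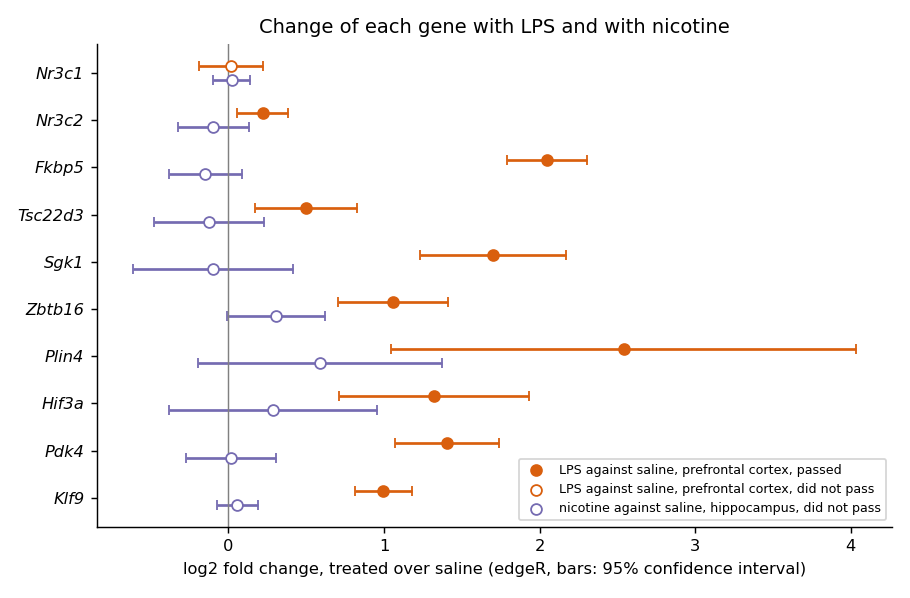
Points show the log2 fold change of each gene with LPS in prefrontal cortex and with nicotine in hippocampus, with 95% confidence intervals, filled where the gene passed an adjusted p under 0.05. With LPS all targets lie to the right of 0, from 0.50 for Tsc22d3 to 2.54 for Plin4, and with nicotine every interval includes 0.

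Library 8L, a saline library whose title says LPS, ran high in many of these genes, though not in Nr3c1. Relative to the mean of the other 3 saline libraries, its CPM was 6.42-fold for Plin4, 2.27-fold for Hif3a, 1.98-fold for Sgk1, 1.5-fold for Zbtb16 and 1.39-fold for Tsc22d3. It was 1.18-fold for Fkbp5, 1.10-fold for Klf9, 1.08-fold for Nr3c2, 1.05-fold for Pdk4 and 0.982-fold for Nr3c1. It had been singled out beforehand from its high values in several targets, so these comparisons describe it and test nothing. Library 8L was the highest saline library for 6 of the 8 targets. For Fkbp5 and Pdk4 it was 6L, whose title also says LPS. Over the 17747 tested genes that could be matched by name, 8L was the highest saline library for 21.2%, and over the 3807 of them called higher with LPS, for 29.3%. In the wider glucocorticoid list it was the highest for 18 of 27 genes (66.7%). Across all genes with at least 20 counts, 8L was the closest to 1L of any pair of libraries within a prefrontal cortex group (chi-square per degree of freedom 11.0), while 1L was the lowest of the saline libraries for Fkbp5, Plin4, Hif3a and Pdk4. Red blood cell markers were also highest in 8L, with a mean log2 CPM of 1.62. The other saline libraries had 0.95 (1L), 0.54 (6L) and 0.16 (3L). The part of these markers in the target levels of 8L was not tested. Without 8L the same 9 genes of the set passed.

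In hippocampus 24 h after nicotine, 0 of the 10 genes passed the test (edgeR). This was so for every gene tested, 0% of 18873, with a smallest adjusted p of 0.555. At an unadjusted p under 0.05 there were 0 of the 10 and 1577 genes in all, or 8.36%, and DESeq2 called 15 genes, 0 of them among the 10. For 0 of the 10 were the groups separate, against 0.387% of all genes.

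**Figure D3:**
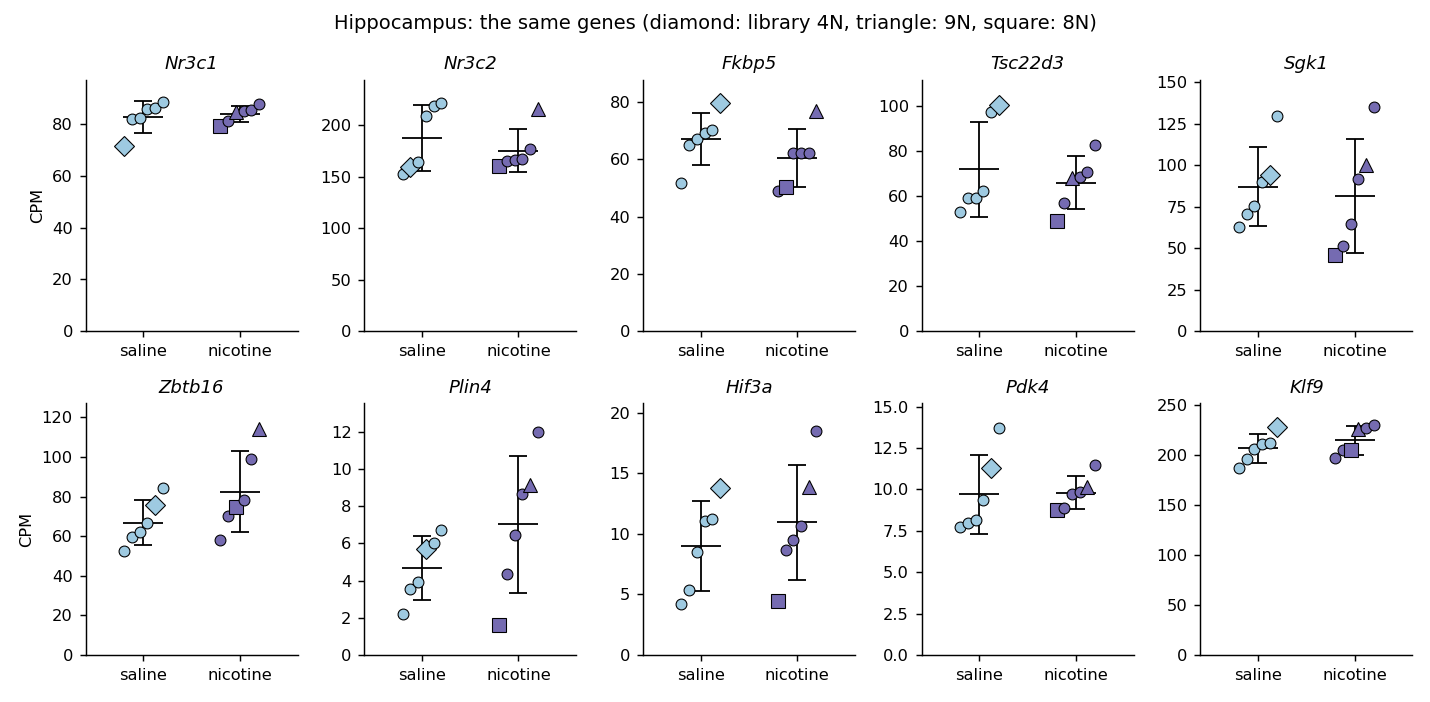
Each panel shows 1 gene in hippocampus, with level in CPM on a linear axis from 0, points for the 6 saline and 6 nicotine libraries, and bars for the mean and SD. The groups overlap in all panels, and the diamond (4N), triangle (9N) and square (8N) mark libraries that sit high or low in many genes at once.

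Both receptors were well expressed there. Nr3c1 ranged from 71.5 over a median of 84.2 to 88.5 CPM in saline and from 79.4 over 84.9 to 87.8 CPM with nicotine, a log2 change of 0.02 (SE 0.05; 95% confidence interval -0.10 to 0.14). Nr3c2 ranged from 152 over 187 to 222 CPM in saline and from 160 over 166 to 216 CPM with nicotine, a log2 change of -0.10 (SE 0.11; 95% confidence interval -0.33 to 0.13). In saline the Nr3c2 libraries formed a lower trio (2N, 4N and 5N, at 152 to 164 CPM) and a higher one (1N, 3N and 6N, at 209 to 222 CPM).

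Fkbp5 stood at a median of 68.2 CPM in saline (51.6 to 79.5) and 62.2 CPM with nicotine (49.1 to 77.0). Its log2 change was -0.15 (SE 0.11; 95% confidence interval -0.38 to 0.09). Sgk1 had the widest spread of the abundant targets, with a median of 82.7 CPM in saline (63.0 to 130) and 78.2 CPM with nicotine (45.7 to 135). Its interval was accordingly wide, from -0.61 to 0.42. Tsc22d3 stood at a median of 60.8 CPM in saline (52.9 to 101) and 68.3 CPM with nicotine (49.1 to 82.8), a log2 change of -0.12 (SE 0.17).

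Zbtb16 came closest to the threshold, with a median of 64.3 CPM in saline (52.7 to 84.4) and 76.6 CPM with nicotine (58.3 to 114). The log2 change was 0.30 (SE 0.15; 95% confidence interval -0.01 to 0.62; edgeR's adjusted p = 0.595). Plin4 had the largest estimate and again the largest error, 0.59 (SE 0.37), with 2.20 to 6.71 CPM in saline and 1.61 to 12.0 CPM with nicotine. For Hif3a the estimate was 0.29 (SE 0.31), with 4.18 to 13.7 CPM in saline and 4.44 to 18.5 CPM with nicotine. Pdk4, at 7.76 to 13.7 and 8.73 to 11.5 CPM, had 0.02 (SE 0.14), and Klf9, at 186 to 228 and 196 to 230 CPM, had 0.06 (SE 0.06), the tightest of the targets.

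The levels of different genes can be set against each other only per length, as CPM per kilobase of exon. In saline prefrontal cortex Klf9 led with 49.1 ± 3.49 (SD, n = 4), far above Tsc22d3 with 13.3 ± 3.14, Nr3c1 with 11.8 ± 0.786 and Sgk1 with 10.9 ± 4.43. The last 3 overlapped among themselves. Zbtb16 with 7.79, Nr3c2 with 7.10 and Fkbp5 with 4.90 followed, with Zbtb16 overlapping both neighbours, and Pdk4 (2.30), Plin4 (1.21) and Hif3a (0.786) were the lowest. With LPS the order became Klf9 (97.9), Sgk1 (35.4), Fkbp5 (20.3), Tsc22d3 (18.8) and Zbtb16 (16.2), all of them then above Nr3c1 (12.0). Plin4 (7.05) passed Pdk4 (6.11), but its libraries ran from 3.16 to 14.6 and overlapped it.

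In hippocampus with saline Nr3c2 ranked next to Klf9, at 29.0 ± 4.97 CPM per kilobase (SD, n = 6) against 42.8 ± 2.94, and Nr3c1 stood at 10.8 ± 0.786. The ratio of Nr3c2 to Nr3c1 per kilobase was 2.70 ± 0.465 in hippocampal saline libraries (2.10 to 3.21) and 2.48 ± 0.291 with nicotine (2.26 to 3.02). In prefrontal cortex it was 0.603 ± 0.0434 with saline (0.543 to 0.646) and 0.699 ± 0.0810 with LPS (0.592 to 0.763). The tissues did not overlap in this ratio, but they are separate tables and batches, so tissue and batch cannot be told apart and no test was made. The mineralocorticoid receptor is known for high levels in hippocampal neurons.

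Within a group, the targets tended to be high or low in the same libraries. For each library the deviations of the 8 targets from their group mean (log2 CPM, in SD units) were averaged. In prefrontal cortex this mean was 1.40 in 8L, with all 8 of 8 targets above the group mean, and 0.58 in 6L. It was -0.96 in 3L (0 of 8) and -1.02 in 1L (1 of 8). The high saline libraries 6L and 8L have titles saying LPS, and the low ones, 1L and 3L, titles saying saline. Variation among saline libraries and the conflict of labels cannot be told apart here. The value of 8L only describes it, since 8L had been singled out beforehand for high values in several targets. The LPS libraries lay closer together, from -0.29 in 2L to 0.45 in 5L. In hippocampus 4N had 1.00 and 9N had 0.88, each with 8 of 8 targets above the mean, while 8N had -1.22 and 5N had -0.73, each with 0 of 8. High and low libraries were found with saline and with nicotine alike.

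**Figure D4:**
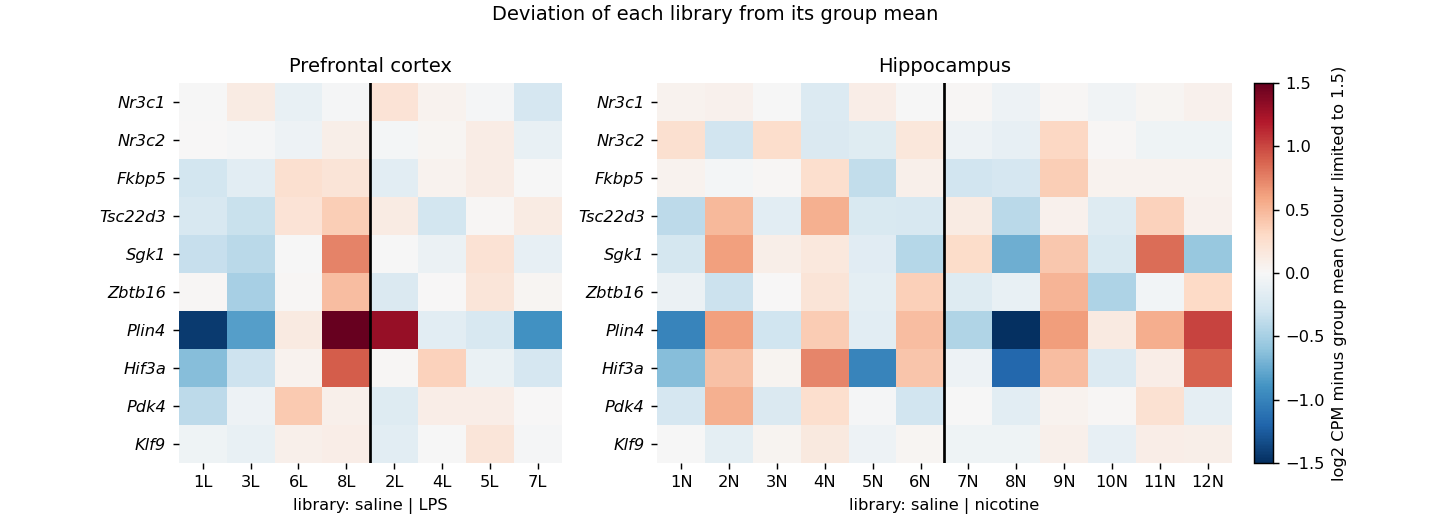
Colours show the log2 CPM of each gene in each library minus its group mean, from -1.5 (blue) to 1.5 (red), with prefrontal cortex on the left and hippocampus on the right. In 8L, 4N and 9N all targets lie above their group mean and in 8N all lie below. Some do so only faintly, such as Pdk4 in 8L (0.08) and Klf9 in 8N (-0.07), and Nr3c1 runs from -0.25 in 7L to 0.21 in 2L.

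Of the 28 pairs of targets, 28 had a positive correlation of these deviations over the 8 prefrontal cortex libraries (median r 0.63) and 25 did over the 12 hippocampal libraries (median r 0.43). These correlations are descriptions, given without p, since libraries share their normalization and group means. No such count was made for pairs of other genes, so how unusual these counts are is not known. The prefrontal cortex pairs include 8L, singled out beforehand for its high targets, and saline libraries that split along the titles in conflict. Sgk1 (r 0.91, rho 0.88) and Fkbp5 (r 0.87, rho 0.90) followed the mean of the other targets most closely in prefrontal cortex, and stayed at r 0.81 and 0.93 without the 2 libraries farthest from the median. Plin4 did not: its r of 0.66 fell to 0.07 without the 2 farthest libraries. Likewise r fell from 0.74 to 0.46 for Tsc22d3 and from 0.79 to 0.56 for Hif3a. It rose from 0.73 to 0.84 for Zbtb16 and from 0.60 to 0.89 for Pdk4, and stayed at 0.67 for Klf9. In hippocampus Hif3a (r 0.83), Tsc22d3 (0.75), Plin4 (0.75) and Fkbp5 (0.65) followed the mean of the other targets most closely. Nr3c1 did not follow the targets, with r of -0.29 in prefrontal cortex and -0.19 in hippocampus, and Nr3c2 had 0.38 and -0.02. In hippocampus, choroid plexus markers were highest in 5N (mean log2 CPM 5.78) and 11N (5.01), of which 5N was low and 11N high in the targets.

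Among all genes, those most like the target mean by r were, in prefrontal cortex, Klhl24 (r 0.97, rho 0.95), Slc39a12 (0.95, 0.98), Brca1 (0.94, 0.93), Zfp747 (0.94, 0.95) and Stxbp5l (0.94, 0.98), out of 13261 candidates over 8 libraries. In hippocampus they were Ptges3-ps (r 0.92, rho 0.89), Ccdc77 (0.90, 0.88), Phf6 (0.90, 0.89), Btbd3 (0.89, 0.90) and Insig2 (0.88, 0.90), out of 13135 over 12 libraries. Without the 2 libraries farthest from the median, r was 0.90 to 0.98 for those in prefrontal cortex and 0.78 to 0.88 for those in hippocampus. These genes were picked for the highest r of all candidates, and the remaining libraries took part in that choice, so neither r tests the likeness. No gene was in both sets, and Ptges3-ps is a pseudogene whose reads may belong to its parent. The wider glucocorticoid list leaned the same way, with 27 of 27 genes at r above 0 in prefrontal cortex (median 0.60) and 23 of 28 in hippocampus (median 0.37). Of all candidates 50.9% and 49.9% were above 0. The prefrontal cortex values include 8L, singled out beforehand for its high targets, and the same split of saline libraries along their titles.

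Most other glucocorticoid-responsive genes rose with LPS in prefrontal cortex too. In a list of 28 such genes besides the 10, 27 were tested, 21 were higher and 1 was lower, with a median log2 change of 0.78, against 0.01 over all genes and 21.5% and 19.7% of genes called. The list was compiled with earlier results known, so its direction is not independent evidence. The metallothionein genes Mt1, from 160 ± 20 to 603 ± 89.5 CPM (SD, n = 4 each; log2 change 1.91, SE 0.12), and Mt2 (2.35, SE 0.20) led by p-value. Nfkbia, the NF-kB inhibitor gene that NF-kB itself also induces, had 1.84 (SE 0.17) and the small GTPase gene Rhob 0.74 (SE 0.07). The gene that fell was Glul, glutamine synthetase of astrocytes, with -0.24 (SE 0.06; edgeR adjusted p = 0.00806). Fam107a, Mertk, Tob2, Bcl6 and Dusp1 did not pass, with 0.11 to 0.33. These 5 and Glul were named after their values were seen.

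Of 21 chaperones and coregulators of the receptor 4 were higher and 6 lower, with a median log2 change of -0.05. These shares lie near those over all genes, 21.5% higher and 19.7% lower. The coactivator gene Ncoa1 (0.48, SE 0.07) and the corepressor gene Nrip1 (0.61, SE 0.10) rose, and the heat shock protein genes Hspa4 (-0.43, SE 0.07) and Hspa8 (-0.43, SE 0.08) fell. Fkbp4, whose product competes with that of Fkbp5 at the receptor complex, fell by 0.41 on the log2 scale (SE 0.09; edgeR adjusted p = 0.00387), and it was picked out after its value was seen.

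Of 12 tested genes of hormone metabolism, transport and the stress axis (16 listed), 3 were higher and 5 lower (21.5% and 19.7% over all genes), with a median of -0.37. Crhr1, the receptor of corticotropin-releasing hormone, fell from 31.8 ± 3.74 to 12.0 ± 4.26 CPM (-1.41 on the log2 scale, SE 0.20). The hormone's binding protein gene Crhbp fell by 0.67 (SE 0.14). The paralogs Abcb1a and Abcb1b encode P-glycoprotein, an efflux pump of the blood-brain barrier that carries corticosteroids. They parted, with -1.25 (SE 0.25) and 1.02 (SE 0.19), and whether reads were shared between these related genes was not tested. The point at 4.12 in the plot of gene lists is Avp, vasopressin, with 0.16 ± 0.11 CPM in saline and 2.84 ± 5.07 CPM with LPS, a spread larger than its mean, and it was picked out after its value was seen.

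**Figure D5:**
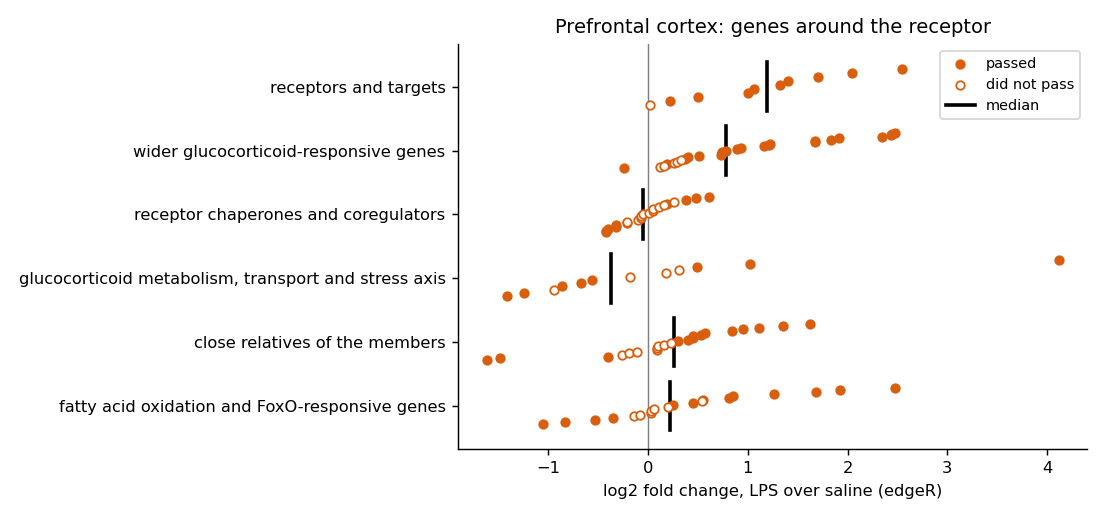
Each point is 1 gene of a list, placed at its log2 fold change with LPS in prefrontal cortex and filled where it passed, with a black bar at the list's median. The receptors and targets and the wider responsive genes lie mostly to the right of 0, and the other lists spread to both sides.

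Close relatives of the 10 genes did not all move with them. Of 22 tested, 11 were higher and 3 lower, with a median of 0.26, against 21.5% and 19.7% over all genes. Sgk3, a kinase related to Sgk1, rose from 10.8 ± 1.87 to 27.6 ± 4.84 CPM (1.35, SE 0.16), Tsc22d4 had 0.57 (SE 0.07) and Pdk2 had 0.53 (SE 0.07). Plin3, a relative of Plin4, fell from 20.8 ± 2.59 to 7.41 ± 2.49 CPM (-1.49, SE 0.20). Of 20 genes of fatty acid oxidation and of the response to FoxO factors, which also induce Pdk4, 9 were higher and 4 lower, with a median of 0.22, and the share lower was near the 19.7% over all genes. Ucp2 (1.92, SE 0.09), Txnip (1.68, SE 0.12) and Angptl4 (2.48, SE 0.24; also in the wider list) rose, and Acadm, an enzyme of fatty acid oxidation, fell by 0.83 (SE 0.11).

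Some markers of cell types also passed the test with LPS, against 21.5% of all genes higher and 19.7% lower. The lists are short, so their counts are descriptions and no result about a cell type. Of 5 microglial markers 2 were lower, with a mean log2 CPM over the list of 4.70 to 4.89 (saline) and 3.56 to 4.30 (LPS) and a summed level of 195 to 207 and 119 to 186 CPM. Of 6 blood leukocyte markers 2 were tested and 1 was higher, with a summed level of 1.00 to 3.02 CPM in saline and 2.51 to 6.41 CPM in LPS libraries. Endothelial markers had 3 of 8 higher and 2 lower, with sums of 172 to 211 and 202 to 248 CPM. Astrocyte markers had 2 of 6 higher and 2 lower, with sums of 3851 to 4105 and 3745 to 4651 CPM. Oligodendrocyte markers had 2 of 6 lower, with sums of 2800 to 3776 and 2525 to 3419 CPM, and red blood cell markers 3 of 5 lower, with sums of 10.6 to 27.2 and 2.85 to 9.54 CPM. Neuronal markers had 1 of 4 higher and 1 lower, cortical excitatory neuron markers 1 of 4 lower and hippocampal neuron markers 2 of 4 higher. Of 4 meningeal and fibroblast markers tested 1 was higher and 1 lower, and of 6 choroid plexus markers tested 0 passed. The part of all these markers in the rises of the 10 genes was not tested.

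In hippocampus 0 genes of the wider responsive, machinery, stress axis, relatives and FoxO lists passed with nicotine, with median log2 changes between -0.05 and 0.08. The marker lists had 0 calls as well, with medians from -0.54 for choroid plexus to 0.58 for the 1 leukocyte marker tested. Cebpd, of the wider list, had the smallest p-value of them, at -0.49 (SE 0.13; edgeR's adjusted p = 0.555). Mt1, which had risen with LPS, had 0.02 (SE 0.15) with nicotine.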

How the data were processed

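Poly(A)-selected RNA libraries were sequenced from prefrontal cortex (batch 1, 8 libraries) and hippocampus (batch 2, 12 libraries), per the labels. For each tissue the authors deposited a table of unnormalized counts by gene. Per the submitters' processing notes the tools were fastp, STAR, featureCounts and DESeq2, with no version or role named, and the build mm10. Neither annotation nor strand setting is given in the sources used here. In hippocampus 5296 of 57180 identifiers had no symbol in GENCODE vM21, which also gave coordinates and exon lengths. Promoter windows were taken from RefSeq, and Nr3c1 and Zbtb16 had none.

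The tissues were fitted separately in edgeR 4.0.16 (R 4.3.3): filterByExpr, TMM factors, quasi-likelihood F-test, Benjamini-Hochberg adjustment over all genes tested and a threshold of 0.05. Alternatives were DESeq2 1.42.0, RLE factors, no filter, a filter of 1 CPM, a replicate block, a marker covariate, each library left out, grouping by title, and the 4 libraries with agreeing labels. DESeq2 left 33194 adjusted p missing in prefrontal cortex and 42556 in hippocampus. Titles call the libraries biological replicates without naming separate animals, so p-values measure only the spread between these libraries. No pair of libraries within a group agreed within sampling noise.

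The members and the gene lists were chosen with earlier results of these data known. Other genes named were markers of the tissues, up to 4 per list with the smallest p in either comparison, the 5 per tissue most like the targets, and those said to be chosen after their values were seen. Steps were tested on simulated data.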

Additional observations from a re-analysis of the deposited data

Results flagged for a closer look

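Of 40 combinations of gene and group checked, 1 held a library far from the rest, where chance alone gives about 1 in 20 groups. In hippocampus with nicotine, library 9N stood at 216 CPM of Nr3c2, while the other 5 nicotine libraries lay at 160 to 177 CPM. Its gap to the nearest library was 0.701 of the group's range, above Dixon's 95% critical value for a group of 6. The same library was above the group mean for 8 of 8 target genes.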

How the results depend on the processing

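In prefrontal cortex 7 of the 8 targets, Tsc22d3 excepted, kept their direction and call under all 15 alternatives besides grouping by title. The number of the 10 genes called was 9 with DESeq2, 7 to 9 with single libraries left out and 8 with the replicate block. Grouping by title called 0 of the 10 genes and 0 genes in all (7313 as reported), and gave Nr3c1 -0.19 and Plin4 -0.75. With single libraries left out 5703 to 8481 genes were called, and 6064 with the replicate block. The sign of Nr3c1, near 0, also turned with a striatal covariate (-0.0224), in the 4 libraries with agreeing labels (-0.19) and with single libraries left out (-0.0552 to 0.0862). In hippocampus 0 of the 10 were called throughout, while DESeq2 called 15 genes in all and leaving out single libraries 0 to 1, the 1 without nicotine replicate 5. There the signs of Pdk4 (-0.0410 to 0.139), Sgk1 (-0.296 to 0.0507) and Nr3c1 (-0.0182 to 0.0386) turned with single libraries left out. The cause of these shifts was not tested. The counts of the 5 gene lists in prefrontal cortex stayed within 1.5 times except by title, where all moved, and in the agreeing libraries, where 3 of 10 did. Replicate numbers did not pair libraries: same-numbered deviations correlated at -0.16 to -0.03 in prefrontal cortex and -0.16 to 0.42 in hippocampus, with 0 of 4 and 1 of 6 saline libraries closest to their own number. With the replicate block Nr3c2 had 0.22 in prefrontal cortex (adjusted p = 0.0604). The 95% interval of a gene's log2 change extended by a median of 0.29 on each side in prefrontal cortex and by 0.22 in hippocampus.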
